A study of Mus musculus with 14 samples.

Results

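Transcript levels of 36 genes of the cell cycle were measured in the aorta and liver of BT3xHuBL and HuBL mice, as rows of 2 count tables of 24732 features each. A feature was taken as a member when its name, cut at its first _ character, was one of 36 listed symbols, and each symbol matched a single feature, so that all 36 were found. The 14 libraries fall into 4 groups: 3 BT3xHuBL aortas, 3 HuBL aortas, 4 BT3xHuBL livers and 4 HuBL livers, all from mice kept for 52 weeks on a normal laboratory diet. Neither strain name is explained in the labels. As background, published HuBL mice express human apolipoprotein B from a transgene and have no LDL receptor, which gives them atherosclerosis, and published BT mice have a transgenic T cell receptor against apolipoprotein B; HuBL is thus common to all 4 groups, and BT3 is what the names of 2 of them add. The age, sex and number of animals behind a library are not given in the labels, and p-values therefore measure the spread between libraries, which may be technical.

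A cell that divides first builds nucleotides and copies its genome in S phase, and then condenses, attaches and separates its chromosomes in mitosis. Nucleotide enzymes and the replication helicase are transcribed ahead of and during S phase, largely under E2F factors, and many mitotic genes come later, through a promoter element called the cell cycle homology region (CHR) that the MuvB complex binds together with its activators. Most cells of an adult aorta or liver are at rest, and hepatocytes are known to enter the cell cycle again when liver tissue is lost. Of the 36 members, 11 act in nucleotide supply or replication and are called S-phase members here, and 25 act in mitosis and are called mitotic members.

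The promoters show how the classes differ in sequence, which the choice of members did not use. RefSeq windows of GRCm38.p6, reaching from 250 bases before to 50 bases after the annotated start, were matched by symbol for 31 of the 36 members; Aurkb, Ccna2, Kif20a, Mcm4 and Tpx2 are named only. Each window was searched on both strands for the CHR as TTTGAA or TTCGAA, for the CCAAT box as CCAAT, and for an E2F site as TTTCCCGC, TTTCGCGC, TTTGCCGC or TTTGGCGC. A CHR was present for 16 of 21 mitotic members (76.2%) and 2 of 10 S-phase members (20%), against 19.2% of all 32851 windows of this length. An E2F site was present for 4 of 10 S-phase members (40%), which were Mcm3, Mcm5, Mcm6 and Mcm7, and for 1 of 21 mitotic members (4.76%), Cdk1, against 2.26% of all windows. CCAAT was common to both classes, with 19 of 21 mitotic members (90.5%) and 8 of 10 S-phase members (80.0%), against 37.4% of all windows. Among the mitotic members with a window, Ccnb1, Cks2, Birc5, Cenpe and Nusap1 had no match to the CHR letters, and among the S-phase members Mcm2 and Mcm7 had one. These are matches of letters in a fixed window and no test of binding.

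The 6 windows below show the contrast, each 5′ to 3′ along its gene, with the matched letters in capitals. Top2a (chr11:99024140-99024439, minus strand) and Kif11 (chr19:37376132-37376431, plus strand) hold CHR and CCAAT letters and are the mitotic members of smallest p in the aorta; Top2a has 4 CHR matches and 6 CCAAT matches. Ccnb2 (chr9:70421505-70421804, minus strand) has 3 CCAAT boxes with a CHR match on either side. Cdk1 (chr10:69352863-69353162, minus strand) is the mitotic member with an E2F match as well as CHR. Mcm3 (chr1:20820263-20820562, minus strand) and Mcm6 (chr1:128359656-128359955, minus strand) hold E2F letters and no CHR; in Mcm6, E2F matches on opposite strands share 4 bases.
Top2a: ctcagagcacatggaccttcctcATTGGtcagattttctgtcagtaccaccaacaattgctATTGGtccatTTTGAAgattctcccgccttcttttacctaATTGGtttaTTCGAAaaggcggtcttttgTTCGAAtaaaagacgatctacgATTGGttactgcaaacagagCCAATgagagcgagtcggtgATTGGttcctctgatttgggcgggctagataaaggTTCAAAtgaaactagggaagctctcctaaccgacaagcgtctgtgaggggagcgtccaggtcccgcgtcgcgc
Kif11: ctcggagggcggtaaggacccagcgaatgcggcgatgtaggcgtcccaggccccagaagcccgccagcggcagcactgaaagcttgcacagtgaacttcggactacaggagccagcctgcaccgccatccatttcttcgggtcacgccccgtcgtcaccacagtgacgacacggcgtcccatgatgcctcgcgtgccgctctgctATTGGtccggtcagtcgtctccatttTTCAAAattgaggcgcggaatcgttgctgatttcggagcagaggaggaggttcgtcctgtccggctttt
Ccnb2: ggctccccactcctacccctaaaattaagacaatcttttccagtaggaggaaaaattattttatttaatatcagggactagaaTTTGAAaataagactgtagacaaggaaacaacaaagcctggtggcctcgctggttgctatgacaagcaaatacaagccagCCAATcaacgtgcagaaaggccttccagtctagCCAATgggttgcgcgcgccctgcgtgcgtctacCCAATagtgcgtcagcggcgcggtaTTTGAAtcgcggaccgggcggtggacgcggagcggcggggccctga
Cdk1: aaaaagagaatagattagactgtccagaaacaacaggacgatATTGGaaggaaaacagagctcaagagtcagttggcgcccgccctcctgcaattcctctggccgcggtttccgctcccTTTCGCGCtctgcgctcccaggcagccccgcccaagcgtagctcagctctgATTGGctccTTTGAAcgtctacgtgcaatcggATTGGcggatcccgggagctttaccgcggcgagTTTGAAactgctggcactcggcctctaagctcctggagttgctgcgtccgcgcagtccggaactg
Mcm3: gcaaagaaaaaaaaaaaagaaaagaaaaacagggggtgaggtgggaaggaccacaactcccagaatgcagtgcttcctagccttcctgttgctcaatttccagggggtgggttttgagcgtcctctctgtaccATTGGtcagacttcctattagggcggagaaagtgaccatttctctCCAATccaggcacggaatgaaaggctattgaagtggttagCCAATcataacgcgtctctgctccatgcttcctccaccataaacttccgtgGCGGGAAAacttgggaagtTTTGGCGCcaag
Mcm6: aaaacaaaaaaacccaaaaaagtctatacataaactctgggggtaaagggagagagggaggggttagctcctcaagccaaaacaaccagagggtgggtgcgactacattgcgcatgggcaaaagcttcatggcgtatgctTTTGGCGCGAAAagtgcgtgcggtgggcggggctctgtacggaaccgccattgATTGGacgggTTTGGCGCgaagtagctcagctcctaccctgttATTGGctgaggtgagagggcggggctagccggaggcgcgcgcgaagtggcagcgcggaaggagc

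Libraries held 41933263 to 65539765 counts in the aorta and 13228123 to 17992459 in the liver. The 36 members together took 24144 to 36325 counts of an aorta library and 1339 to 2137 of a liver library, so a single member rests on far fewer reads in the liver. Levels below are CPM, counts scaled for library size on a scale shared by all 14 libraries; the library kit reads a transcript near its 3′ end, so CPM carry no length term. The tissue labels went with their markers: 9 hepatocyte markers summed to 0.133 to 0.194 CPM in BT3xHuBL aortas and 0.0893 to 0.584 CPM in HuBL aortas, and to 142860.3 to 188395 CPM in BT3xHuBL livers and 152609 to 184452 CPM in HuBL livers. The sum of 9 smooth muscle markers was 10350.1 to 14157 CPM in BT3xHuBL aortas and 11309 to 13319 CPM in HuBL aortas, and 168 to 219 CPM in BT3xHuBL livers and 180.0 to 220.3 CPM in HuBL livers.

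For 9 members an exon of a protein-coding gene lies on the opposite strand within the member's exons in GENCODE M21, and no source used here gives the strand setting of the counting, so reads of both genes cannot be told apart. The neighbour's exon reaches the member's 3′ end for Mcm7 (Cops6), Cdc20 (Elovl1), Kif20a (Cdc23) and Prc1 (Rccd1). In the aorta these neighbours averaged 66.8, 59.7, 33.1 and 8.72 CPM in BT3xHuBL, and 65.6, 60.6, 34.9 and 7.90 CPM in HuBL, in the same order. Overlaps away from the 3′ end join Tk1 to Afmid, Ccna2 to Exosc9, Ube2c to Tnnc2, Cdca8 to 9930104L06Rik, Nusap1 to Oip5, and Mcm7 to Ap4m1. Pseudogenes named after Ccnb1, Ccnb2, Tyms and Pcna could also take or give reads.

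The first comparison asks whether cell cycle transcripts differ between BT3xHuBL and HuBL aortas. Most members leaned slightly to lower levels in BT3xHuBL aortas, none past the threshold: 32 of 36 had a log2 fold change below 0, where 51.5% of all 15400 tested features did, and the median was -0.087 for members and -0.0044 for all features. The count below 0 was 27 without BT3xHuBL aorta 2, 28 without HuBL aorta 2, and 30 to 32 with any other aorta left out. Members of a library share its RNA and depth, so their common direction is not a set of independent observations. No member passed edgeR's quasi-likelihood test at an adjusted p of 0.05, where the background is 0.026% of features. DESeq2 and limma-voom called no member either, beside 68 and 3 of the 15400 features. At an unadjusted p under 0.05 there were 4 members of 36, Top2a, Kif11, Rrm2 and Plk1, all lower in BT3xHuBL, beside 4.08% of features in either direction. The groups did not overlap for 7 members, Top2a, Kif11, Rrm2, Plk1, Cenpe, Prc1 and Cdc20, each lower in BT3xHuBL, against 4.13% of features that were lower without overlap. In RNA of whole tissue, fewer dividing cells and less of a transcript per cell cannot be told apart.

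The 25 mitotic members summed to 158, 171 and 157 CPM in BT3xHuBL aortas, against 171, 186 and 187 CPM in HuBL aortas. The 11 S-phase members summed to 229, 219 and 234 CPM in BT3xHuBL aortas, against 245, 245 and 238 CPM in HuBL aortas. Both sums lay lower in every BT3xHuBL aorta than in every HuBL aorta, though BT3xHuBL aorta 2 and HuBL aorta 1 were nearly equal for mitotic members; the means were 162 ± 7.74 CPM in BT3xHuBL and 181 ± 8.81 CPM in HuBL for mitotic members, and 227 ± 7.71 CPM in BT3xHuBL and 242 ± 4.08 CPM in HuBL for S-phase members (SD, n = 3 each). The median log2 fold change was -0.10 over mitotic and -0.076 over S-phase members. Sums of B cell and plasma cell markers lay lower too: 8 B cell markers summed to 30.8 to 36.6 CPM in BT3xHuBL and 38.1 to 47.7 CPM in HuBL aortas, with all 8 below 0 and none at 0 counts in any library, and 7 plasma cell markers to 400.3 to 516 CPM in BT3xHuBL and 629.7 to 939 CPM in HuBL aortas, with 6 of 7 below 0. Neutrophil markers summed to 29.03 to 67.6 CPM in BT3xHuBL and 23.02 to 40.7 CPM in HuBL aortas, with 5 of 5 tested above 0, and adipocyte markers to 475 to 674 CPM in BT3xHuBL and 347 to 563 CPM in HuBL aortas, with 7 of 8 above 0; Ngp was at 0 in all HuBL aortas. The part of these 4 marker lists in the members' difference was not tested. Further marker lists, among them those of T cells, macrophages, endothelial cells and fibroblasts, were summed as well. Their aorta sums are not given here, so the lists shown are a selection.

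Nucleotide supply was led by ribonucleotide reductase, which makes deoxyribonucleotides. Rrm2, its small subunit and the limiting one in S phase (chr12:24708241-24714146 of GRCm38 in GENCODE M21, as for the positions that follow), had 7.66, 6.75 and 6.83 CPM in BT3xHuBL aortas, against 8.21, 8.87 and 9.77 CPM in HuBL aortas. All 3 BT3xHuBL values lay under the HuBL values, with a log2 fold change of -0.35 (SE 0.13) and an adjusted p of 0.9999. Rrm1 had 24.6, 26.1 and 25.2 CPM in BT3xHuBL aortas, against 27.2, 27.999 and 23.97 CPM in HuBL aortas. The large subunit thus overlapped between genotypes, at -0.071 (SE 0.088) on the log2 scale. Tk1 had 6.72, 6.01 and 6.04 CPM in BT3xHuBL aortas, against 6.41, 6.48 and 6.73 CPM in HuBL aortas. Thymidine kinase, which salvages thymidine, differed by -0.076 (SE 0.13) on the log2 scale and overlapped; Tyms, the enzyme that makes thymidylate, differed by -0.064 (SE 0.14).

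The replicative helicase of Mcm2 to Mcm7, which unwinds DNA, and Pcna, the clamp that holds polymerases on it, stood close to even between genotypes. Mcm2 had 12.2, 10.1 and 11.8 CPM in BT3xHuBL aortas, against 13.7, 11.9 and 13.3 CPM in HuBL aortas. Mcm2 had the smallest p of this group, at -0.20 (SE 0.11) with an unadjusted p of 0.101 (without BT3xHuBL aorta 2, -0.12), and BT3xHuBL aorta 1 lay within the HuBL range and the other two below it. Pcna had 59.7, 68.0 and 64.1 CPM in BT3xHuBL aortas, against 70.1, 76.2 and 64.5 CPM in HuBL aortas. Pcna overlapped, at -0.15 (SE 0.087). Mcm6 had 43.2, 39.8 and 48.5 CPM in BT3xHuBL aortas, against 45.2, 43.3 and 47.4 CPM in HuBL aortas. The other members of the helicase ran from -0.085 in Mcm7 to 0.0023 in Mcm4, all overlapping between genotypes.

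Among the mitotic cyclins and kinases, Plk1 and Ccna2 had the smallest p. Plk1, a kinase of spindle assembly and mitotic exit (chr7:122159439-122169873), had 2.73, 2.87 and 3.29 CPM in BT3xHuBL aortas, against 4.89, 3.62 and 3.89 CPM in HuBL aortas. The 3 BT3xHuBL values were the lowest of the 6, with a log2 fold change of -0.49 (SE 0.19) and an adjusted p of 0.9999. Ccna2 had 8.54, 12.3 and 8.35 CPM in BT3xHuBL aortas, against 10.5, 12.7 and 13.4 CPM in HuBL aortas. Cyclin A2, the partner of CDKs in S phase and early mitosis, had 2 BT3xHuBL libraries under every HuBL library and 1 within their range, at -0.34 (SE 0.17), or -0.54 without BT3xHuBL aorta 2. Ccnb1 had 4.44, 6.49 and 5.35 CPM in BT3xHuBL aortas, against 6.66, 6.32 and 5.30 CPM in HuBL aortas. Cks2 had 3.25, 3.58 and 3.71 CPM in BT3xHuBL aortas, against 3.46, 3.64 and 3.78 CPM in HuBL aortas. Ccnb1, the cyclin that starts mitosis with Cdk1, and Cks2, a small subunit of that kinase, overlapped between genotypes, at -0.18 (SE 0.18) and -0.057 (SE 0.17). Ccnb2, Cdk1 and the Aurora kinases Aurka and Aurkb lay between -0.16 and -0.066.

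The spindle checkpoint and the ubiquitin ligase that ends mitosis showed Cdc20 apart from the rest. Cdc20, the activator of that ligase, the anaphase-promoting complex, had 4.82, 5.57 and 4.54 CPM in BT3xHuBL aortas, against 5.70, 6.12 and 5.82 CPM in HuBL aortas. It was lower without overlap, at -0.25 (SE 0.15), while Elovl1 on the opposite strand differed by -0.034 (SE 0.069). Bub1b had 6.16, 5.99 and 5.38 CPM in BT3xHuBL aortas, against 5.49, 7.32 and 6.65 CPM in HuBL aortas. The checkpoint kinase Bub1 and its relative Bub1b, Ube2c, the ubiquitin-conjugating enzyme of the complex, and Cdca3, a trigger of mitotic entry, overlapped, with log2 fold changes from -0.16 in Bub1b to 0.040 in Cdca3.

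In the passenger complex and at the kinetochore, Cenpe stood apart. Cenpe, a kinesin that carries chromosomes to the spindle equator (chr3:135212537-135273611), had 4.52, 3.45 and 3.76 CPM in BT3xHuBL aortas, against 4.52, 5.70 and 4.94 CPM in HuBL aortas. The highest BT3xHuBL value and the lowest HuBL value were equal at this precision, and the log2 fold change was -0.38 (SE 0.18) with an unadjusted p of 0.0551. Birc5 had 5.20, 5.82 and 5.61 CPM in BT3xHuBL aortas, against 4.82, 7.32 and 6.57 CPM in HuBL aortas. Birc5 (survivin) overlapped, at -0.18 (SE 0.18), as did Cdca8 (borealin) and the kinetochore protein Cenpf, at 0.061 and -0.094.

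Of the spindle motors and cytokinesis factors, Kif11 had the largest difference of all 36 members in the aorta. Kif11, the kinesin that pushes spindle poles apart (chr19:37376403-37421859), had 4.05, 4.88 and 3.97 CPM in BT3xHuBL aortas, against 5.89, 4.96 and 7.40 CPM in HuBL aortas. All BT3xHuBL values were under the HuBL values, at -0.51 (SE 0.18) with an adjusted p of 0.9999. Prc1 had 8.87, 8.84 and 10.04 CPM in BT3xHuBL aortas, against 10.4, 11.4 and 10.6 CPM in HuBL aortas. Prc1, which bundles microtubules of the midzone, was lower without overlap, at -0.23 (SE 0.11), and its opposite-strand neighbour Rccd1 was at 0.13 (SE 0.13). Tpx2 had 13.1, 10.6 and 10.03 CPM in BT3xHuBL aortas, against 11.4, 10.7 and 10.6 CPM in HuBL aortas. Tpx2, Nusap1, Kif20a and Kif23, which act in spindle assembly and in the cleavage furrow, overlapped, from -0.10 in Kif23 to 0.031 in Tpx2.

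Top2a, the topoisomerase that untangles sister chromatids (chr11:98992943-99024189), had the smallest p of all members. Its level was 15.97, 16.6 and 16.1 CPM in BT3xHuBL aortas, against 18.8, 22.4 and 21.3 CPM in HuBL aortas. The BT3xHuBL libraries lay close together, under the lowest HuBL library, with a log2 fold change of -0.37 (SE 0.095), an unadjusted p of 0.00262 and an adjusted p of 0.726. Mki67 had 24.8, 27.2 and 21.7 CPM in BT3xHuBL aortas, against 24.9, 26.7 and 30.000 CPM in HuBL aortas. Mki67, the coat protein of mitotic chromosomes used as a marker of dividing cells, overlapped between genotypes, at -0.16 (SE 0.11). Standard errors of the 36 log2 fold changes ran from 0.083 to 0.25, so differences of the size seen in Tpx2 or Kif20a were not detectable with these libraries.

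**Figure D1:**
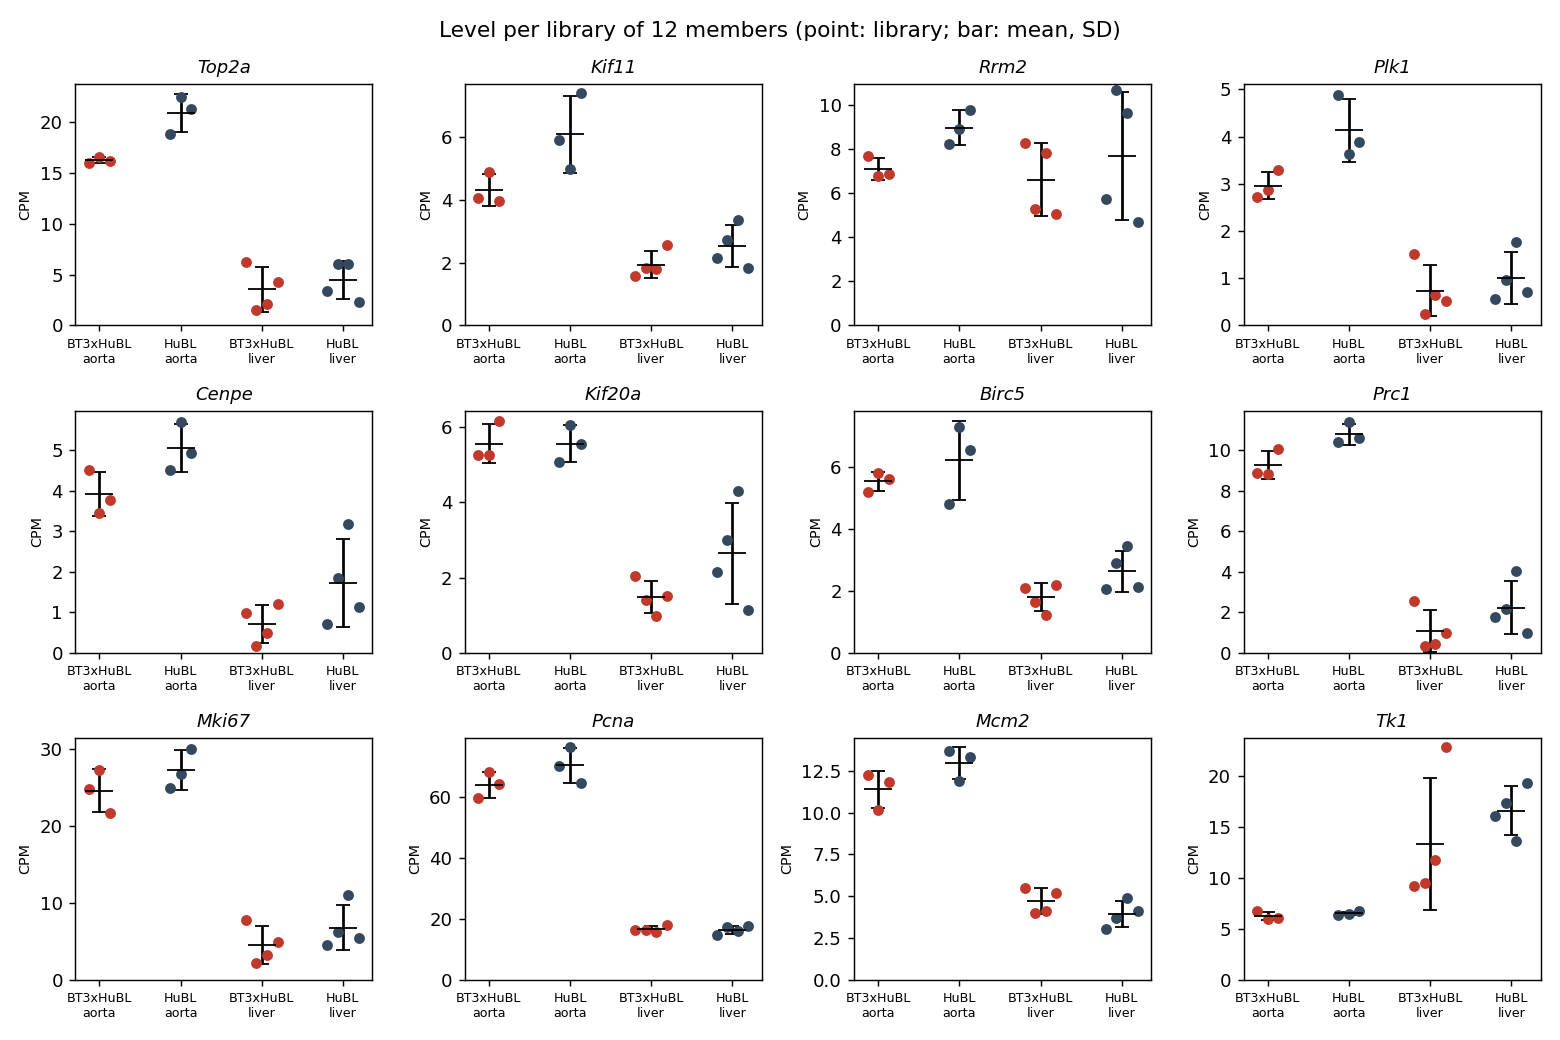
Level of 12 members in CPM (y axis, from 0) in every library, by group (x axis); points are libraries, bars the mean and SD. Top2a in BT3xHuBL aortas lies between 15.97 and 16.6 CPM, under all HuBL aortas, while the liver groups overlap in every panel.

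The same question in the liver gave larger but far less certain differences, nearly all in mitotic members. Of the 36 members, 33 passed the filter on low counts, and 29 of these 33 had a log2 fold change below 0, against 48.2% of all 12453 tested features; their median was -0.44, against 0.0092 for all features. The 22 tested mitotic members were all below 0, with a median of -0.55, and the 11 S-phase members were split 7 below and 4 above, with a median of -0.0090. No member was called by edgeR's quasi-likelihood test, where the background was 0% of features. None had an unadjusted p under 0.05 in that test, where 11.1% of features did. DESeq2 and limma-voom called no member, beside 133 and 0 of the 12453 features. Every member overlapped between genotypes, while 6.5% of features did not. Bub1, Ccnb1 and Plk1 were left out by the filter; their levels are given below with no test.

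The mitotic sum was 58.5, 21.7, 24.1 and 41.5 CPM in BT3xHuBL livers, against 43.6, 63.5, 80.7 and 33.7 CPM in HuBL livers. The S-phase sum was 102, 88.9, 95.1 and 116 CPM in BT3xHuBL livers, against 96.2, 113, 106 and 104 CPM in HuBL livers. Mitotic transcript thus varied 3.71-fold between the highest and lowest of the 8 livers, and S-phase transcript 1.30-fold; over the 6 aortas the same ratios were 1.19 and 1.12. The genotype means were 36.5 ± 17.1 CPM in BT3xHuBL and 55.4 ± 20.9 CPM in HuBL livers for mitotic members, and 101 ± 11.6 CPM in BT3xHuBL and 105 ± 7.08 CPM in HuBL livers for S-phase members (SD, n = 4 each). The mitotic difference between genotypes was thus about as large as 1 SD within a genotype, and both sums overlapped.

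The mitotic members moved together from liver to liver, whatever the genotype. Set against the mean of the 8 livers, 22, 1, 1 and 14 of the 25 mitotic members were above it in BT3xHuBL livers 1 to 4, and 11, 25, 24 and 6 in HuBL livers 1 to 4. BT3xHuBL livers 2 and 3 were low in nearly all mitotic members, BT3xHuBL liver 1 and HuBL livers 2 and 3 were high, and the others lay between. For the 11 S-phase members the counts were 8, 0, 4 and 9 in BT3xHuBL and 1, 8, 8 and 4 in HuBL livers, in the same order. The median over mitotic members of the biological coefficient of variation, the spread between libraries of a group beyond counting error, was 0.383, above the trend of features of like abundance for 17 of 22; for S-phase members it was 0.164, with 4 of 11 above the trend, and 25.3% of all features were above it. In the aorta 1 of 25 mitotic and 0 of 11 S-phase members were above the trend, against 23.7% of features. Members of a library share its RNA and depth, so their moving together is not a set of independent observations.

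A list of 49 other mitotic genes, none of them a member, had 40, 9, 12 and 27 genes above the mean of the 8 livers in BT3xHuBL livers 1 to 4, and 21, 36, 44 and 22 in HuBL livers 1 to 4. By this count the same livers were low and high, but it includes genes under the low-count filter of the liver. The summed level of the list was 238, 219, 220 and 213 CPM in BT3xHuBL livers, against 229, 251, 270 and 234 CPM in HuBL livers. That sum was lowest in BT3xHuBL liver 4. The 23 genes of the replication fork had 20, 10, 10 and 17 above the mean in BT3xHuBL and 10, 16, 8 and 5 in HuBL livers, and the 17 genes of origin licensing and firing 10, 10, 9 and 7 in BT3xHuBL and 10, 8, 9 and 9 in HuBL livers. T cell markers, 9 of 9 found and none at 0 counts in any library, summed to 10.99, 15.6, 15.7 and 9.28 CPM in BT3xHuBL livers, against 25.7, 21.6, 35.2 and 16.9 CPM in HuBL livers, with all 8 tested below 0. Fibroblast markers summed to 397, 238, 350.0 and 288 CPM in BT3xHuBL livers, against 266, 240.2, 265 and 279 CPM in HuBL livers. T cell markers were lower in every BT3xHuBL liver than in every HuBL liver. Bile duct markers summed to 133 to 329.8 CPM in BT3xHuBL and 127 to 199 CPM in HuBL livers, with 4 of 5 tested above 0. B cell markers summed to 11.6 to 18.96 CPM in BT3xHuBL and 11.9 to 25.1 CPM in HuBL livers, with 7 of 7 tested below 0, and 6 of 8 tested smooth muscle markers were below 0. The part of these 5 marker lists in the members' differences was not tested. Further lists, among them those of macrophages, neutrophils, endothelial cells and plasma cells, were summed as well. Their liver sums are not given here, so these lists too are a selection.

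**Figure D2:**
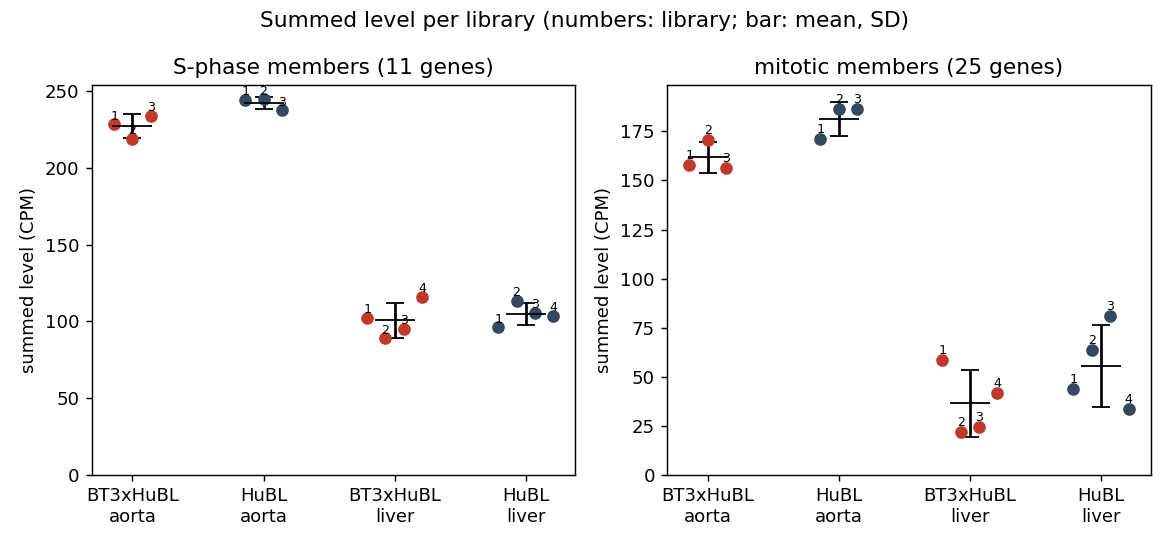
Summed level in CPM (y axis, from 0) of the 11 S-phase members and the 25 mitotic members in every library, by group (x axis); points are libraries with their number, bars the mean and SD. The mitotic sum runs from 21.7 to 80.7 CPM over the livers, and the S-phase sum from 88.9 to 116 CPM.

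**Figure D3:**
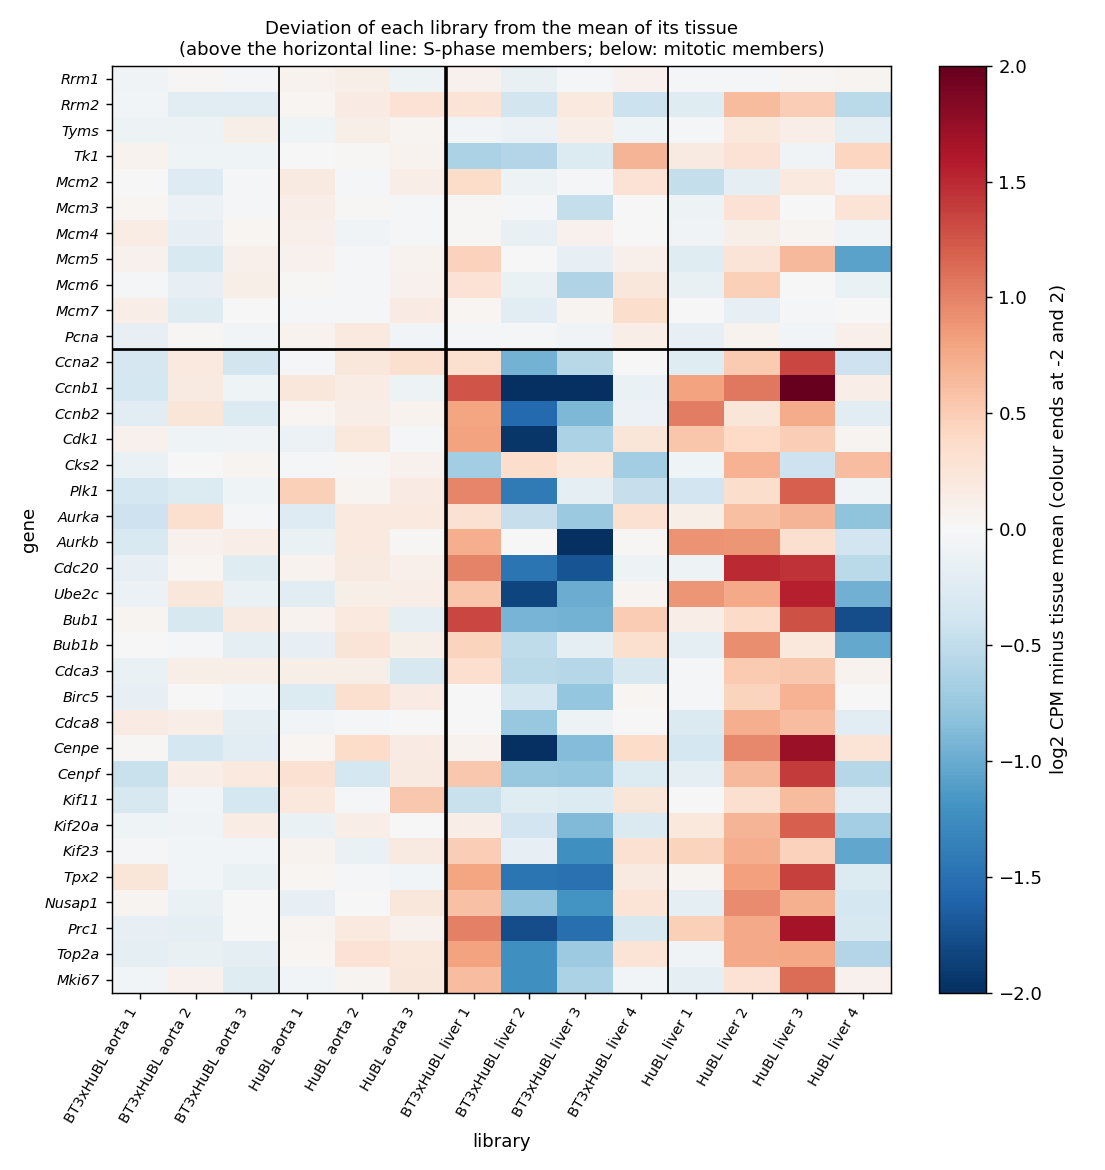
Log2 CPM of each member (rows) in each library (columns) minus the mean of that member over the libraries of the same tissue; colours end at -2 and 2. BT3xHuBL livers 2 and 3 are blue and HuBL livers 2 and 3 red over most of the 25 mitotic members below the horizontal line. BT3xHuBL liver 1 is red for 22 of these members and HuBL liver 4 blue for 19, and the aortas vary less. Of the 11 S-phase members above the line, Mcm5 in HuBL liver 4 deviates most, by -1.07.

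By role, S-phase members were close to even between liver genotypes. Tk1 had 9.18, 9.50, 11.8 and 22.9 CPM in BT3xHuBL livers, against 16.1, 17.4, 13.7 and 19.4 CPM in HuBL livers. BT3xHuBL liver 4 had the highest Tk1 of all 8 and the other 3 BT3xHuBL livers the lowest, at -0.32 (SE 0.28). Afmid, a gene of tryptophan breakdown that overlaps Tk1 on the opposite strand, averaged 132 CPM in BT3xHuBL and 191 CPM in HuBL livers, at -0.53 (SE 0.14), and its part in Tk1 was not tested. Rrm1 had 15.3, 12.9, 13.96 and 15.2 CPM in BT3xHuBL livers, against 13.96, 14.1, 14.6 and 14.9 CPM in HuBL livers. Rrm2 had 8.28, 5.29, 7.79 and 5.05 CPM in BT3xHuBL livers, against 5.75, 10.6, 9.63 and 4.66 CPM in HuBL livers. Rrm1 held within a narrow range in all 8 livers, at -0.0069 (SE 0.11), whereas Rrm2 was high in HuBL livers 2 and 3 and in BT3xHuBL livers 1 and 3, at -0.20 (SE 0.29). Pcna had 16.3, 16.3, 15.7 and 18.1 CPM in BT3xHuBL livers, against 14.8, 17.3, 15.9 and 17.7 CPM in HuBL livers. Mcm2 had 5.49, 3.97, 4.14 and 5.20 CPM in BT3xHuBL livers, against 3.03, 3.68, 4.86 and 4.10 CPM in HuBL livers. Pcna was flat at 0.014 (SE 0.11), and Mcm2 was on average higher in BT3xHuBL, at 0.27 (SE 0.21), with overlap. Mcm6 had 8.96, 6.69, 4.79 and 8.60 CPM in BT3xHuBL livers, against 6.62, 10.3, 7.39 and 6.71 CPM in HuBL livers. Mcm3 to Mcm7 ran from -0.23 in Mcm3 to 0.13 in Mcm7, and Tyms was at -0.069.

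The mitotic cyclins and kinases had low liver counts. Ccna2 had 2.86, 1.16, 1.54 and 2.26 CPM in BT3xHuBL livers, against 1.92, 3.29, 5.80 and 1.70 CPM in HuBL livers. Ccnb2 had 2.71, 0.496, 0.812 and 1.43 CPM in BT3xHuBL livers, against 3.19, 1.84, 2.62 and 1.34 CPM in HuBL livers. Ccna2 was highest in HuBL liver 3 and lowest in BT3xHuBL liver 2, at -0.67 (SE 0.43), and Ccnb2, another cyclin of mitosis, was also lowest in BT3xHuBL livers 2 and 3, at -0.70 (SE 0.47); both overlapped. Ccnb1 was counted 9, 0, 0 and 3 times in BT3xHuBL livers and 6, 6, 14 and 4 times in HuBL livers, which is 0.677, 0, 0 and 0.226 CPM in BT3xHuBL and 0.479, 0.581, 1.31 and 0.283 CPM in HuBL livers. A count of 0 allows up to 0.248 and 0.244 CPM in BT3xHuBL livers 2 and 3, for counting error alone, so a difference from HuBL livers 1 and 4 was hardly detectable at this depth. Plk1 had 1.51, 0.248, 0.650 and 0.528 CPM in BT3xHuBL livers, against 0.559, 0.968, 1.78 and 0.707 CPM in HuBL livers. Cks2 had 0.452, 0.992, 0.893 and 0.453 CPM in BT3xHuBL livers, against 0.718, 1.26, 0.561 and 1.20 CPM in HuBL livers. Cks2 did not follow the other mitotic members: it was lowest in BT3xHuBL livers 1 and 4 and in HuBL liver 3, at -0.44 (SE 0.41). Cdk1, Aurka and Aurkb were at -0.44, -0.30 and -0.56 with standard errors of 0.39 to 0.54.

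Checkpoint and ubiquitin ligase members were also low in BT3xHuBL livers 2 and 3. Cdca3 had 3.84, 2.07, 2.03 and 2.41 CPM in BT3xHuBL livers, against 2.95, 4.36, 4.40 and 3.18 CPM in HuBL livers. Cdca3 was the steadier of them, at -0.51 (SE 0.27) with an adjusted p of 0.489, and 3 of 4 BT3xHuBL livers lay under every HuBL liver. Ube2c had 1.51, 0.248, 0.487 and 1.06 CPM in BT3xHuBL livers, against 1.92, 1.74, 3.09 and 0.495 CPM in HuBL livers. Ube2c was lowest in BT3xHuBL liver 2 and highest in HuBL liver 3, at -1.08 (SE 0.59) with an adjusted p of 0.498. Bub1 had 0.978, 0.165, 0.162 and 0.528 CPM in BT3xHuBL livers, against 0.399, 0.484, 0.935 and 0.0707 CPM in HuBL livers. Bub1b had 1.66, 0.826, 1.06 and 1.51 CPM in BT3xHuBL livers, against 1.04, 2.32, 1.40 and 0.565 CPM in HuBL livers. Bub1b was even on average, at -0.033 (SE 0.42), and Cdc20 was at -0.96 (SE 0.67) with overlap.

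The smallest p of the liver comparison was that of Cenpe. Cenpe had 0.978, 0.165, 0.487 and 1.21 CPM in BT3xHuBL livers, against 0.718, 1.84, 3.18 and 1.13 CPM in HuBL livers. Cenpe was lowest in BT3xHuBL livers 2 and 3, overlapped through HuBL livers 1 and 4, and had a log2 fold change of -1.22 (SE 0.57), an unadjusted p of 0.0565 and an adjusted p of 0.451. Birc5 had 2.11, 1.65, 1.22 and 2.19 CPM in BT3xHuBL livers, against 2.07, 2.90, 3.46 and 2.12 CPM in HuBL livers. Birc5 had its top 2 values in HuBL livers 3 and 2 and its lowest in BT3xHuBL liver 3, at -0.54 (SE 0.28) with an adjusted p of 0.481. Cdca8 had 1.58, 0.909, 1.46 and 1.58 CPM in BT3xHuBL livers, against 1.28, 2.61, 2.43 and 1.34 CPM in HuBL livers. Cdca8 was at -0.44 (SE 0.33) and Cenpf at -0.71 (SE 0.48).

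Spindle and cytokinesis members varied as widely. Kif20a had 2.03, 1.40, 0.974 and 1.51 CPM in BT3xHuBL livers, against 2.15, 3.0003, 4.30 and 1.13 CPM in HuBL livers. Kif20a, a kinesin of the cleavage furrow, was highest in HuBL liver 3, with HuBL liver 4 inside the BT3xHuBL range, at -0.81 (SE 0.40) with an adjusted p of 0.467; Cdc23 on the opposite strand was at 0.025 (SE 0.16). Prc1 had 2.56, 0.331, 0.406 and 0.980 CPM in BT3xHuBL livers, against 1.76, 2.13, 4.02 and 0.989 CPM in HuBL livers. BT3xHuBL liver 1 had more Prc1 than 3 of the 4 HuBL livers, and the log2 fold change was -1.01 (SE 0.63). Kif11 had 1.58, 1.82, 1.79 and 2.56 CPM in BT3xHuBL livers, against 2.15, 2.71, 3.37 and 1.84 CPM in HuBL livers. Tpx2 had 2.56, 0.496, 0.487 and 1.66 CPM in BT3xHuBL livers, against 1.52, 2.61, 3.83 and 1.20 CPM in HuBL livers. Kif11 was at -0.36 (SE 0.27) and did not peak in BT3xHuBL liver 1, while Tpx2, at -0.77 (SE 0.56), did so within its genotype; Kif23 and Nusap1 were at -0.27 and -0.46. Top2a had 6.25, 1.49, 2.11 and 4.30 CPM in BT3xHuBL livers, against 3.35, 6.001, 6.08 and 2.33 CPM in HuBL livers. Mki67 had 7.83, 2.15, 3.25 and 4.90 CPM in BT3xHuBL livers, against 4.47, 6.19, 11.04 and 5.37 CPM in HuBL livers. The 2 chromosome members were at -0.30 (SE 0.47) and -0.56 (SE 0.41), with the highest Top2a of all livers in BT3xHuBL liver 1.

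How large the liver difference looked depended on single livers. Without BT3xHuBL liver 1 the median over all tested members was -0.52 and that of the mitotic members -0.92. In that edgeR fit 9 of 33 members had an unadjusted p under 0.05, where 9.6% of features did. The median over all tested members was -0.55 without HuBL liver 4, -0.49 without BT3xHuBL liver 4 and -0.43 without HuBL liver 1. In these fits 3, 2 and 1 of 34 members had an unadjusted p under 0.05 by edgeR, beside 9.64%, 11% and 9.06% of features. No member was called in any of them. The median over all tested members was -0.22 without HuBL liver 3, -0.28 without HuBL liver 2, -0.27 without BT3xHuBL liver 2 and -0.29 without BT3xHuBL liver 3, with no member at an unadjusted p under 0.05 in these fits. Without HuBL liver 3 the log2 fold change was -0.20 in Ccna2, -0.55 in Prc1, -0.74 in Cenpe, -0.46 in Kif20a and -0.69 in Ube2c. Without BT3xHuBL liver 1 it was -1.90 in Prc1, -1.28 in Ccnb2 and -0.77 in Cdca3, and without BT3xHuBL liver 2 it was -0.43 in Ccnb2.

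**Figure D4:**
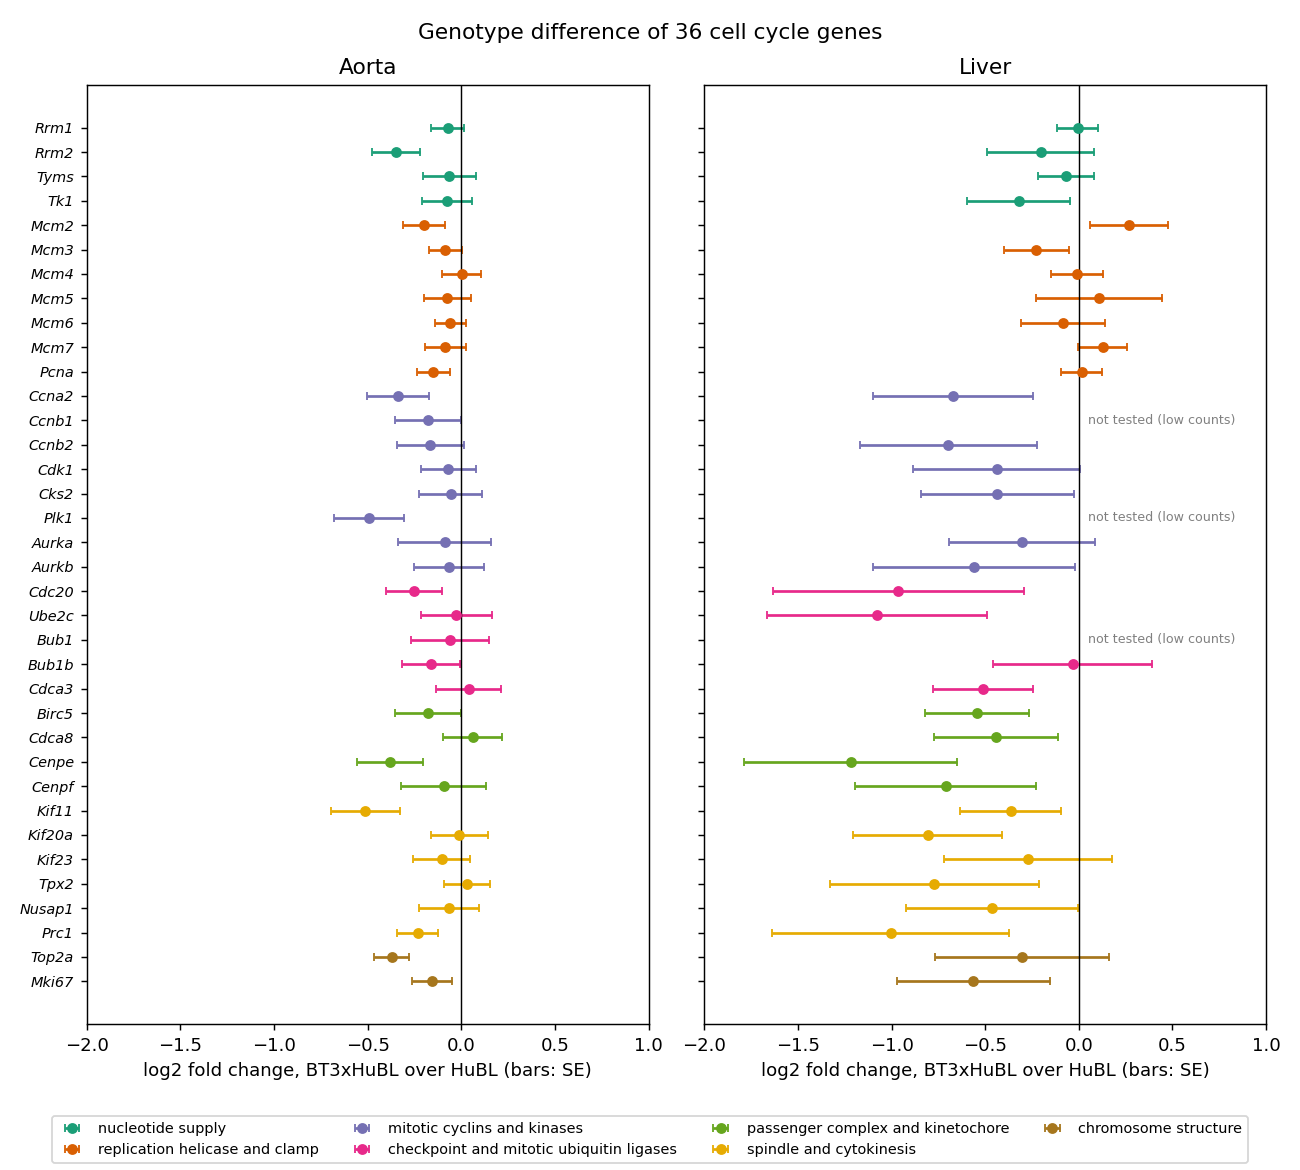
Log2 fold change of BT3xHuBL over HuBL (x axis, points) with its standard error (bars) for the 36 members (y axis, coloured by role), in the aorta (left) and the liver (right). In the aorta points lie between -0.51 and 0.061; in the liver the mitotic members reach -1.22 with wide bars, and 3 members were not tested.

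Whether the genotype difference itself differed between tissues was tested as an interaction in a fit of all 14 libraries. No member of 36 passed edgeR's quasi-likelihood test, where 0% of 14912 features did. At an unadjusted p under 0.05 in that test there was no member, beside 8.16% of features. DESeq2 and limma-voom called no member, beside 44 and 0 of the 14912 features. The smallest p belonged to Mcm2, whose difference of log2 fold changes, aorta minus liver, was -0.46 (SE 0.23) with an adjusted p of 0.645, since it was lower in BT3xHuBL aortas and higher in BT3xHuBL livers on average. Kif20a, Cdca3 and Ube2c followed, at 0.81 (SE 0.45), 0.56 (SE 0.33) and 1.07 (SE 0.66), each even between genotypes in the aorta and lower on average in BT3xHuBL livers. The median over mitotic members was 0.41 with standard errors of 0.33 to 0.85, and over S-phase members -0.052, as a description of the classes. Single livers moved these values: without BT3xHuBL liver 1 the median over all members was 0.51, against 0.29 with all libraries, and 7 members had an unadjusted p under 0.05, beside 7.96% of features. That median was 0.47 without HuBL liver 4, 0.19 without HuBL liver 2, 0.16 without BT3xHuBL liver 3, 0.14 without BT3xHuBL liver 2 and 0.13 without HuBL liver 3, with no member called in any. Without HuBL liver 3, Kif20a was at 0.47 and Ube2c at 0.68.

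The largest differences of the members were those between tissues. Aorta and liver differ in depth and are deposited as separate tables, and a difference of tissue and one of preparation cannot be told apart. In BT3xHuBL mice, 32 of 36 members were called higher in the aorta than in the liver and 1 was called lower, where 43.3% of 14912 features were called higher and 39.8% lower, 83.1% in all. In HuBL mice, 31 were called higher and 1 was called lower, where 44% of features were called higher and 39% lower, 83% in all. The median log2 fold change of aorta over liver was 1.94 for members and 0.071 for all features in BT3xHuBL, and 1.57 for members and 0.10 for all features in HuBL. Scaled by library totals alone, the medians of all features were 0.82 in BT3xHuBL and 0.88 in HuBL and those of members 2.69 in BT3xHuBL and 2.34 in HuBL, with 61.8% of features called higher and 22.2% lower in BT3xHuBL, and 63.3% higher and 22.1% lower in HuBL. With that scaling 35 of 36 members were called higher in the aorta in each genotype.

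On the scale shared by all 14 libraries, nucleotide supply was the role group that did not favour the aorta as a whole. Tk1, the 1 member called lower in the aorta, averaged 6.26 ± 0.401 CPM in aorta and 13.3 ± 6.49 CPM in liver of BT3xHuBL mice, and 6.54 ± 0.170 CPM in aorta and 16.6 ± 2.40 CPM in liver of HuBL mice (SD, n = 3 aortas and 4 livers of each genotype, as in the values that follow). Its log2 fold change of aorta over liver was -1.10 (SE 0.25) in BT3xHuBL and -1.35 (SE 0.25) in HuBL, and the overlapping Afmid ran the same way, with 5.50 CPM in aorta and 132 CPM in liver of BT3xHuBL mice; whether Afmid reads enter Tk1 was not tested, and by library totals the BT3xHuBL call was lost (adjusted p = 0.191). Rrm1 averaged 25.3 ± 0.797 CPM in aorta and 14.3 ± 1.12 CPM in liver of BT3xHuBL mice, and 26.4 ± 2.13 CPM in aorta and 14.4 ± 0.433 CPM in liver of HuBL mice, a log2 fold change of 0.82 (SE 0.090) in BT3xHuBL and 0.87 (SE 0.090) in HuBL. Rrm2 and Tyms were not called on this scale in either genotype, Rrm2 at 0.10 in BT3xHuBL and 0.24 in HuBL, and Tyms at -0.24 in BT3xHuBL and -0.26 in HuBL. By library totals the Tyms values turned positive, and Rrm2 and Tyms were called higher in the aorta in both genotypes.

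The clamp and most of the helicase were well above their liver level in the aorta. Pcna averaged 63.9 ± 4.16 CPM in aorta and 16.6 ± 1.05 CPM in liver of BT3xHuBL mice, and 70.3 ± 5.86 CPM in aorta and 16.4 ± 1.34 CPM in liver of HuBL mice, a log2 fold change of 1.95 (SE 0.090) in BT3xHuBL and 2.10 (SE 0.091) in HuBL. Mcm6 averaged 43.9 ± 4.36 CPM in aorta and 7.26 ± 1.92 CPM in liver of BT3xHuBL mice, and 45.3 ± 2.03 CPM in aorta and 7.75 ± 1.71 CPM in liver of HuBL mice, a log2 fold change of 2.59 (SE 0.17) in BT3xHuBL and 2.56 (SE 0.18) in HuBL. No aorta library of Pcna or Mcm6 came near the range of the livers, and the share of all features so separated is not given here. Mcm7, overlapped by Cops6, was the exception among the 7, at 0.12 (SE 0.13) in BT3xHuBL and 0.32 (SE 0.13) in HuBL, called in HuBL and not in BT3xHuBL, with an interaction that did not pass. By library totals Mcm7 was called in both genotypes, and by limma-voom in neither. Mcm2 to Mcm5 ran from 1.15 to 1.90 in BT3xHuBL and from 1.13 to 2.08 in HuBL.

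All 25 mitotic members had a log2 fold change above 0 in both genotypes, with 25 called in BT3xHuBL and 23 in HuBL. Ccnb1 had the largest, with 5.43 ± 1.03 CPM in aorta and 0.226 ± 0.319 CPM in liver of BT3xHuBL mice, and 6.10 ± 0.706 CPM in aorta and 0.663 ± 0.448 CPM in liver of HuBL mice, a fitted log2 fold change of 4.52 (SE 0.58) in BT3xHuBL and 3.24 (SE 0.50) in HuBL, which rests on 0 to 14 counts per liver library and ran from 4.12 to 6.09 in BT3xHuBL when 1 library was left out. Cks2 averaged 3.51 ± 0.239 CPM in aorta and 0.697 ± 0.286 CPM in liver of BT3xHuBL mice, and 3.63 ± 0.163 CPM in aorta and 0.935 ± 0.347 CPM in liver of HuBL mice, at 2.34 (SE 0.30) in BT3xHuBL and 1.95 (SE 0.29) in HuBL. Bub1b averaged 5.85 ± 0.409 CPM in aorta and 1.26 ± 0.386 CPM in liver of BT3xHuBL mice, and 6.49 ± 0.924 CPM in aorta and 1.33 ± 0.744 CPM in liver of HuBL mice, at 2.20 (SE 0.32) in BT3xHuBL and 2.32 (SE 0.32) in HuBL. Bub1 was at 2.64 (SE 0.50) in BT3xHuBL and 2.73 (SE 0.51) in HuBL. Tpx2, which targets Aurora A to the spindle, averaged 11.2 ± 1.64 CPM in aorta and 1.30 ± 1.003 CPM in liver of BT3xHuBL mice, and 10.9 ± 0.422 CPM in aorta and 2.29 ± 1.19 CPM in liver of HuBL mice, at 3.09 (SE 0.42) in BT3xHuBL and 2.28 (SE 0.40) in HuBL. Prc1 and Kif11 were at 3.08 (SE 0.47) in BT3xHuBL and 2.31 (SE 0.44) in HuBL and at 1.15 (SE 0.24) in BT3xHuBL and 1.29 (SE 0.23) in HuBL, Prc1 with the wider gap. Birc5 was at 1.62 (SE 0.24) in BT3xHuBL and 1.25 (SE 0.23) in HuBL and Cdca8 at 1.94 (SE 0.26) in BT3xHuBL and 1.42 (SE 0.25) in HuBL. Top2a, a marker of cycling cells in common use, was at 2.18 (SE 0.36) in BT3xHuBL and 2.26 (SE 0.35) in HuBL. Mki67, another such marker, was at 2.43 (SE 0.33) in BT3xHuBL and 2.02 (SE 0.32) in HuBL. In HuBL mice Cdca3 and Aurka were not called and their tissues overlapped, while both were called in BT3xHuBL. The interaction tests of these 2 genes did not pass, and the calls depended on settings. By library totals both were called in HuBL as well, and DESeq2 called Cdca3 there. In BT3xHuBL, Aurka lost its call without BT3xHuBL aorta 2, BT3xHuBL liver 2 or BT3xHuBL liver 3.

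**Figure D5:**
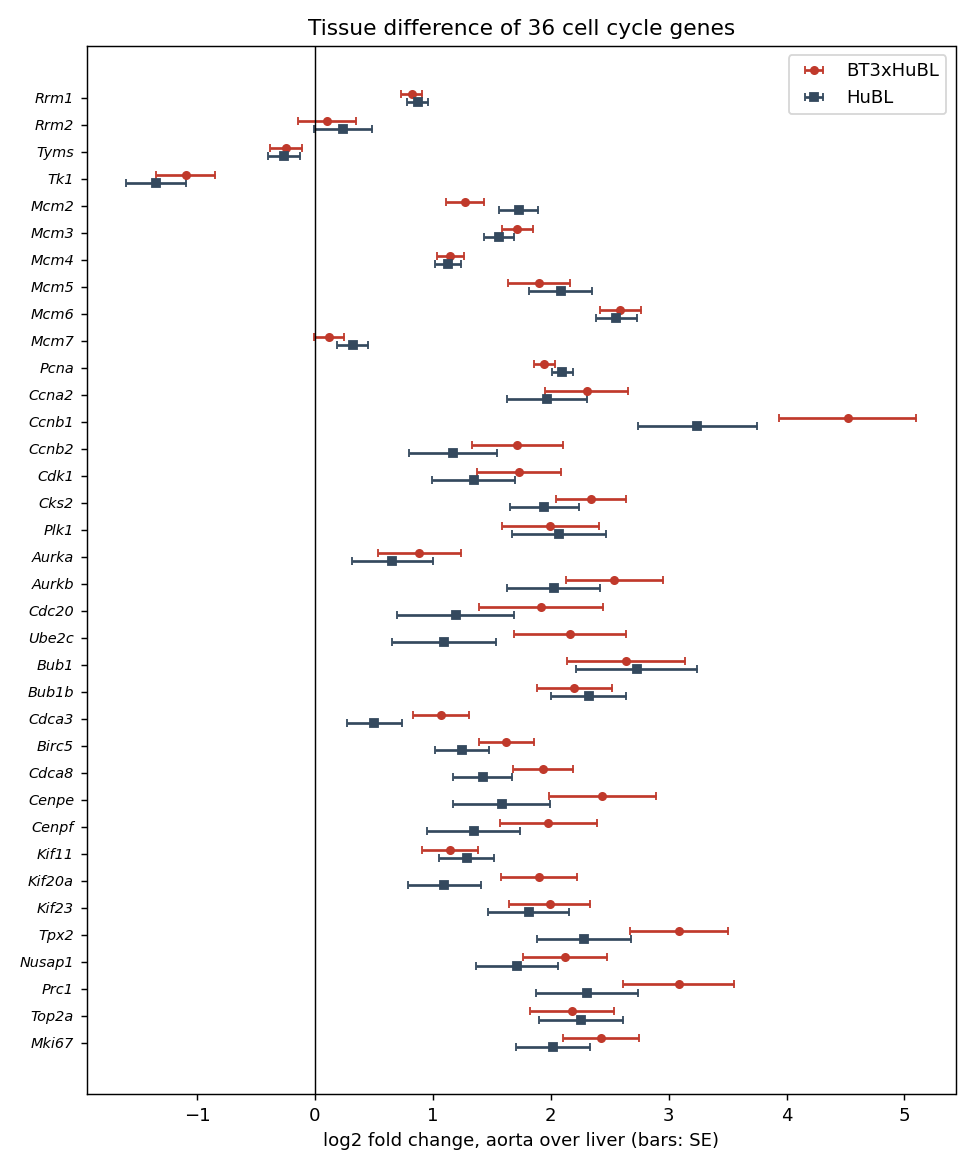
Log2 fold change of aorta over liver (x axis) with its standard error for the 36 members (y axis), in BT3xHuBL (circles, upper of each pair) and HuBL (squares). Tk1 lies lowest, at -1.10 and -1.35, and Ccnb1 highest, at 4.52 and 3.24.

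The wider cell cycle machinery was described through 9 lists of genes outside the 36, none of which had a gene past the threshold in either genotype comparison. Among 9 cyclins and kinases of the entry into the cycle, the median log2 fold change of BT3xHuBL over HuBL was 0.018 in the aorta and 0.099 in the liver; the smallest p were those of Ccnd2 at 0.11 (SE 0.11) and Ccnd1 at -0.065 (SE 0.081) in the aorta, and of Cdk6 at 0.42 (SE 0.23) and Cdc25a at 0.36 (SE 0.21) in the liver. The 13 genes of the RB and E2F family had medians of 0.025 in the aorta and 0.087 in the liver, with E2f1 at 0.22 (SE 0.12) and E2f3 at -0.13 (SE 0.092) in the aorta. E2f8, a repressor among the E2F factors that is known in hepatocytes for its part in polyploidy, had 10.2, 8.43, 7.88 and 29.7 CPM in BT3xHuBL livers, against 5.19, 5.23, 6.64 and 6.86 CPM in HuBL livers. All BT3xHuBL livers were above all HuBL livers, liver 4 by far, with a log2 fold change of 1.23 (SE 0.44) and an adjusted p of 0.378; E2f4 was at 0.31 (SE 0.12). For the MuvB core and its activators, which act on CHR promoters, medians were 0.017 in the aorta and -0.021 in the liver, with Lin9 at 0.28 (SE 0.15) and Lin54 at -0.10 (SE 0.13) in the aorta and Lin9 at -0.33 (SE 0.22) and Rbbp4 at 0.077 (SE 0.088) in the liver.

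CDK inhibitors, which hold cells at rest, had medians of 0.0095 in the aorta and -0.20 in the liver, with Cdkn1c at -0.25 (SE 0.18) and Cdkn1a at -0.089 (SE 0.066) in the aorta and Cdkn1a at -0.34 (SE 0.19) and Cdkn1c at -0.54 (SE 0.31) in the liver. Of 10 p53 targets, Btg2, an antiproliferative gene, had 34.1, 31.1 and 43.99 CPM in BT3xHuBL aortas, against 52.2, 55.8 and 59.9 CPM in HuBL aortas. It was lower without overlap, at -0.63 (SE 0.12) with an adjusted p of 0.306, followed by Gadd45a at -0.25 (SE 0.11). In the liver Trp53inp1, a stress-induced partner of p53, averaged 178 ± 29.1 CPM in BT3xHuBL and 328 ± 75.7 CPM in HuBL (SD, n = 4 each), at -0.88 (SE 0.17). Its adjusted p was 0.181, and Btg2 was at -0.60 (SE 0.32); the list's median was near 0 in the aorta and -0.18 in the liver. Origin licensing and firing (17 genes) and the replication fork (23 genes) had medians of -0.062 in the aorta and 0.064 in the liver, and of -0.045 in the aorta and 0.12 in the liver. Among their genes of smallest p were Cdc6 at -0.38 (SE 0.22), Orc3 at -0.11 (SE 0.082) and Uhrf1 at -0.31 (SE 0.15) in the aorta, and Gins3 at 0.48 (SE 0.30), Orc2 at 0.20 (SE 0.17), Pola1 at 0.55 (SE 0.20) and Prim2 at 0.52 (SE 0.25) in the liver.

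The 49 other mitotic genes had a median of -0.13 in the aorta, with 38 of 49 below 0, and of -0.23 in the liver, with 17 of the 26 tested below 0. Melk, a mitotic kinase, had 1.63, 1.53 and 1.86 CPM in BT3xHuBL aortas, against 2.36, 2.59 and 3.45 CPM in HuBL aortas. It was lower without overlap, at -0.75 (SE 0.23) with an adjusted p of 0.899, and Knl1, a scaffold of the kinetochore, was at -0.70 (SE 0.36). In the liver Spc24, of the kinetochore's NDC80 complex, averaged 19.3 ± 4.68 CPM in BT3xHuBL and 31.2 ± 5.16 CPM in HuBL (SD, n = 4 each), at -0.69 (SE 0.18) with an adjusted p of 0.281. Pttg1 (securin), which restrains the separation of chromatids, was at -0.27 (SE 0.097). Cohesin and condensin, the rings that hold and fold chromosomes, had medians of -0.014 in the aorta and 0.031 in the liver, with Ncapd2 at -0.21 (SE 0.11) and Stag2 at 0.13 (SE 0.097) in the aorta and Stag1 at 0.23 (SE 0.11) and Smc1a at 0.14 (SE 0.080) in the liver. Between tissues, 37 of 49 other mitotic genes were called higher in the aorta and 4 lower in BT3xHuBL, and 35 higher and 4 lower in HuBL. The replication fork had 11 of 23 higher and 7 lower in BT3xHuBL, and 9 higher and 6 lower in HuBL. Of all features, 43.3% were called higher and 39.8% lower in BT3xHuBL, and 44% higher and 39% lower in HuBL. The replication fork was thus near the share of all features called higher.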

How the data were processed

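RNA of 6 aortas and 8 livers was sequenced; per the labels' protocols a Qiagen RNeasy kit and Lexogen QuantSeq V2 libraries, which read near the 3′ end, were used. The authors deposited raw counts per feature. HTSeq 2.0 and GRCm38 are named per the submitters' processing notes; aligner, strand setting and annotation: not given in the sources used here. Starts in the tables were within 1 kb of GENCODE M21's for 1 of 36 members, so positions come from GENCODE M21 and RefSeq by symbol; 5 members (Ccna2, Cdc20, Kif20a, Nusap1, Tk1) carry an overlap suffix whose meaning is not given. Groups and library numbers follow the labels. The genotype comparison was fitted in each tissue alone, and the interaction and tissue contrasts on all 14 libraries, by edgeR's robust quasi-likelihood test (edgeR 4.0.16, R 4.3.3; TMM scaling, low counts removed by filterByExpr), two-sided, with Benjamini-Hochberg adjustment over all tested features and a threshold of 0.05. CPM use TMM-scaled totals over all 14 libraries, and deviations are on log2 CPM with a prior count of 2. Fold changes come from the fits. Each standard error (SE) was derived as the absolute log2 fold change over the square root of the edgeR test's F statistic, and is approximate. DESeq2 1.42.0, limma-voom (limma 3.58.1), other scalings and filters, the replicate number as a block and each library left out in turn were alternatives. No 2 libraries were alike within sampling noise (chi-square over degrees of freedom within groups 12.2 to 75.7, over features with 10 counts or more). The edgeR procedure was tested on simulated data; floors on a count of 0 take 3 counts and cover counting error only. Values in every library are given for the member of highest mean CPM of each role group in each tissue, the 8 members of smallest p in each genotype comparison, the 4 of smallest p in the interaction and, per role group, the 2 of smallest p between tissues; of each other list the 2 genes of smallest p per tissue are named, except 1 gene that is not reported here. Cdc20 in the aorta was added after its values were seen. The members, role groups and lists were chosen with earlier results of these data known. Plots used matplotlib 3.10.9.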

Additional observations from a re-analysis of the deposited data

Results flagged for a closer look

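Of 76 groups of 4 livers looked at, the 36 members and the sums of both classes in each genotype, 1 had a library far from the other 3 by Dixon's criterion, and chance alone gives about 1 in 20. Mcm3, a subunit of the replicative helicase, was at 4.87 CPM in BT3xHuBL liver 3, while the other BT3xHuBL livers were at 6.69 to 6.92 CPM and the HuBL livers at 6.30 to 8.32 CPM; the gap took 0.888 of the group's range.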

How the results depend on the processing

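The counts of members called held within 1.5 times under all alternatives run, and 0 members were called in the genotype and interaction tests under each. The near-zero median of S-phase members in the liver changed sign with library totals (0.031) and without BT3xHuBL liver 2 (0.022), BT3xHuBL liver 3 (0.0075), HuBL liver 2 (0.030) or HuBL liver 3 (0.0073); the cause was not tested. Leaving out 1 library at a time, the median over members was -0.14 to -0.082 in the aorta and -0.55 to -0.22 in the liver, nearest 0 without HuBL liver 3, and members called between tissues numbered 32 to 33 in BT3xHuBL and 30 to 33 in HuBL. Over all features, DESeq2 called 68 in the aorta, 133 in the liver and 44 in the interaction, where edgeR called 4, 0 and 0. Library numbers did not pair the genotypes: same-numbered libraries correlated at -0.056, 0.13 and -0.0043 in the aorta and -0.040, 0.15, 0.10 and 0.067 in the liver; with the replicate block 0 members were called, the medians were -0.091 in the aorta and -0.41 in the liver, and 14 and 10 features were called. Of the values of named members, 930 kept direction and call; 1, Tk1 between tissues in BT3xHuBL by library totals (-0.32), lost its call. In a joint fit of 14 libraries 5 of 36 members had an unadjusted p under 0.05 in the liver, beside 13.7% of features, and 1 in the aorta, beside 3.37%. Over all features, leaving out BT3xHuBL aorta 3 gave 27 calls, none a member. Depth limits the liver most, where Bub1, Ccnb1 and Plk1 fell under the filter.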
